A study of Mus musculus with 6 samples.

Results

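T cell activation takes a signal from the antigen receptor and a further signal from ligands on the cell that presents the antigen. The genes described here are 9 of those surface and secreted molecules or their close partners: Cd80, Cd86, Cd40, Cd274, Pdcd1lg2, Icosl, Cd276, Havcr2 and Lgals9. They were chosen by name for their function, but with earlier results of these data known, so that counts among them are descriptions only. Each had 1 row with a single gene symbol on the array, so all 9 were analysed among 30063 named genes. The samples were megakaryocytes, the platelet-forming cells of the marrow, sorted from female C57 mice with MLL-AF9 acute myeloid leukaemia (AML, 3 arrays) or from healthy controls (3 arrays). The sort took cells with high side scatter, high CD41 and a DNA content of at least 8N, and no allele or agent is given for the controls. How MLL-AF9, a fusion of a chromatin regulator with a transcription elongation factor, was introduced, which promoter drove it, how far the disease had advanced and how old the mice were are not given in the sources used here. Replicates are called biological in the labels but no animals are named, so p-values here reflect how much these particular samples vary, and with 3 arrays a group precision is limited.

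CD80 and CD86, the B7 molecules, bind CD28 on T cells to stimulate them and CTLA-4 to restrain them. CD40 receives the CD40 ligand signal from T cells and raises B7 expression in antigen-presenting cells. PD-L1 (Cd274) and PD-L2 (Pdcd1lg2) bind the inhibitory receptor PD-1, ICOS ligand (Icosl) binds ICOS, and B7-H3 (Cd276) is a relative of the B7 molecules. TIM-3 (Havcr2) is itself an inhibitory receptor, found on T cells and also on myeloid cells, and galectin-9 (Lgals9) is a secreted lectin described as a ligand of TIM-3. Megakaryocytes and platelets have been described to carry CD40 ligand and to be able to present antigen.

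In the sorts from leukaemic mice, transcripts of 5 of the 9 genes were lower: Cd86, Cd80, Havcr2, Cd274 and Cd40. Both B7 genes were among them, with Cd86 5.56-fold and Cd80 3.20-fold lower, and Cd274 was 2.32-fold lower. The other ligand of PD-1, Pdcd1lg2, and Icosl, Cd276 and Lgals9 did not pass the threshold, an adjusted p of 0.05 from limma's moderated test with Benjamini-Hochberg adjustment over all 30063 genes. Over all genes 6.25% passed downward, against 5 of the 9, and 4.49% passed upward, against 0 of the 9 (1 upward at an unadjusted p under 0.05). A measured difference past the threshold and at least 2-fold downward was found in 4 of the 9 and in 1.49% of all genes, and for 1 of the 4, Havcr2, the arrays allow only a bound of 1.39-fold, its AML values being below the level of dim genes. All 3 AML values lay below all 3 control values in 6 of the 9 genes and in 13.1% of all genes, while they lay above them in 1 of the 9 and in 28.2% of all genes. The median difference was -0.84 over the 9 genes and +0.11 over all genes, on the log2 scale and as AML minus control throughout. Centring each array on its median took the shift over all genes to -0.01 and the split of 1880 lower and 1350 higher genes to 2712 and 505, so differences are also given relative to the shift of +0.11.

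**Figure D1:**
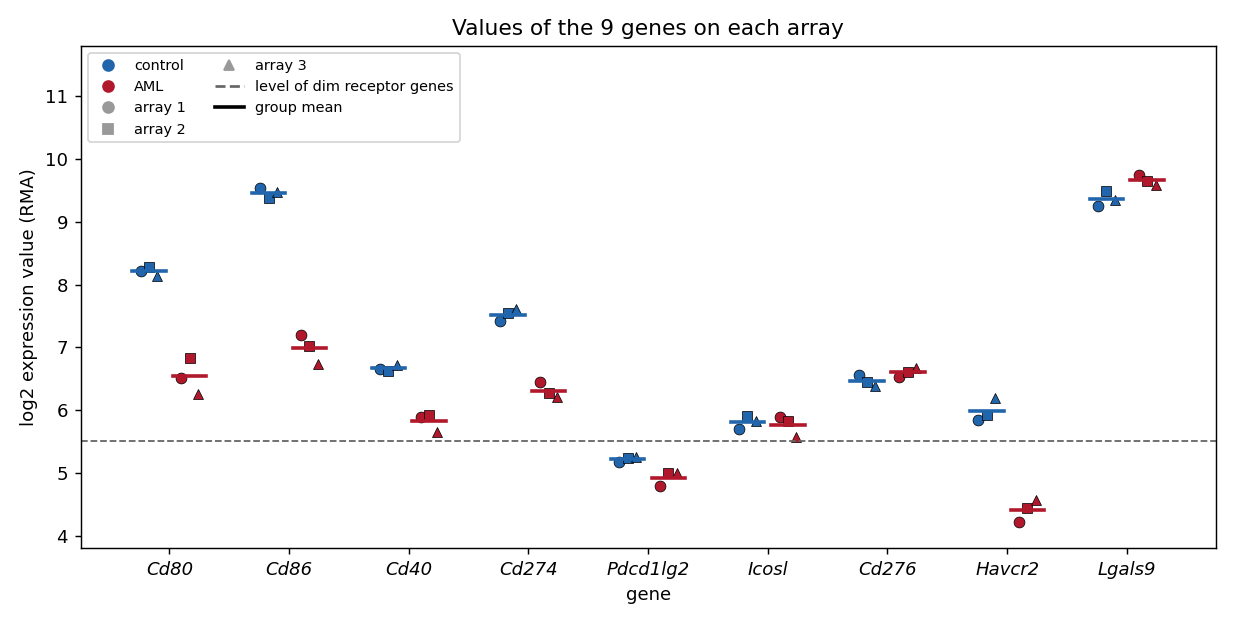
Log2 RMA values (vertical axis) of each of the 9 genes (horizontal axis) on the 3 control arrays (blue) and 3 AML arrays (red), with group means as bars and the level of dim receptor genes, 5.51, as a dashed line. The red points of Cd80, Cd86, Cd40, Cd274 and Havcr2 sit clear below the blue ones, while those of Icosl and Cd276 overlap with them.

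The array gives no detection call, so a group mean was compared with 5.51, the 95th percentile of the means of 1718 olfactory and vomeronasal receptor genes, which are silent in most cells. Of the 9 genes, 7 had both group means above that level. Of these dim genes 0 passed downward (limma) and 117, or 6.81%, passed upward. Among them AML array 3 stood highest, with a median of 3.81 against 3.29 to 3.51 on the other arrays. That array was also the lowest of the AML arrays for 6 of the 9 genes. Leaving out any single array, that one included, left 5 of the 9 genes past the threshold, all lower.

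Cd86 had the largest measured difference of the 9. Its log2 values were 7.20, 7.02 and 6.74 on AML arrays 1 to 3 and 9.54, 9.37 and 9.47 on control arrays 1 to 3. The groups were separated by 2.18 between the highest AML and the lowest control array, many times the spread within either. The mean fell from 9.46 ± 0.08 to 6.98 ± 0.23 (SD, n = 3), a difference of -2.48 (SE 0.12, 95% interval -2.77 to -2.18, limma adjusted p = 0.000299), or -2.58 relative to all genes. Of the 30063 genes, 20 had a lower difference.

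Cd80, the other B7 gene, stood at 6.51, 6.83 and 6.26 on the AML arrays and at 8.22, 8.28 and 8.14 on the control arrays. The AML values were all lower and more spread than the control values. The mean fell from 8.21 ± 0.07 to 6.54 ± 0.29, by 1.68 (SE 0.14, 95% interval of the difference -2.02 to -1.34, limma adjusted p = 0.0013), or -1.78 relative to all genes. Cd40, the receptor for CD40 ligand, stood at 5.89, 5.93 and 5.66 in AML and at 6.66, 6.63 and 6.71 in control. Its groups did not overlap, with AML array 3 nearest to the dim level. The mean fell from 6.67 ± 0.04 to 5.83 ± 0.15, or 1.79-fold (difference -0.84, SE 0.09, limma adjusted p = 0.00279), the smallest of the 5 falls as measured.

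The ligands of PD-1 differed in how far they moved. Cd274 stood at 6.45, 6.27 and 6.21 on the AML arrays and at 7.41, 7.55 and 7.60 on the control arrays. Every AML value was below every control value, by at least 0.97. The mean fell from 7.52 ± 0.10 to 6.31 ± 0.12, a difference of -1.21 (SE 0.09, 95% interval -1.43 to -0.99, limma adjusted p = 0.000872). Pdcd1lg2 stood at 4.78, 4.9995 and 4.996 against 5.17, 5.24 and 5.26. Its groups did not overlap either, but all 6 values were below the dim level of 5.51, so that no fold is given. The means were 4.93 ± 0.12 and 5.22 ± 0.04, a difference of -0.30 (95% interval -0.50 to -0.10, limma adjusted p = 0.0669), which passed downward in 4 of the 13 refits in which the gene was kept. Those 4 were array weights, median centring, quantile normalization and cyclic loess (adjusted p 0.0170 to 0.0279). Whether the differences of Cd274 and Pdcd1lg2 differ from each other was not tested.

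Havcr2, the gene of TIM-3, stood at 4.21, 4.43 and 4.56 in AML and at 5.84, 5.92 and 6.20 in control. All 3 control values were above the dim level and all 3 AML values below it. The means were 4.40 ± 0.18 and 5.98 ± 0.19, a measured difference of -1.58 (SE 0.13, limma adjusted p = 0.00117). Against the dim level the control mean was at least 1.39-fold higher, which is the bound these arrays allow. Lgals9, its lectin partner, was the brightest of the 9 and stood at 9.74, 9.65 and 9.59 in AML and at 9.25, 9.49 and 9.35 in control. The AML values were all higher, by a gap of 0.09. The means were 9.66 ± 0.08 and 9.36 ± 0.12, a difference of +0.30 (95% interval 0.09 to 0.51, limma adjusted p = 0.0761). It was +0.18 after median centring (adjusted p = 0.341) and passed upward with array weights (adjusted p = 0.0458) and under quantile normalization (adjusted p = 0.0491).

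The remaining B7 relatives had groups that overlapped. Icosl, the ICOS ligand gene, stood at 5.89, 5.82 and 5.58 in AML and at 5.70, 5.90 and 5.83 in control. The means were 5.76 ± 0.16 and 5.81 ± 0.10, with a 95% interval of the difference from -0.30 to 0.20 (limma adjusted p = 0.747). Cd276, the B7-H3 gene, stood at 6.52, 6.61 and 6.67 in AML and at 6.56, 6.45 and 6.39 in control, with AML array 1 below the highest control array. The means were 6.60 ± 0.07 and 6.47 ± 0.09, with an interval from -0.06 to 0.32 (limma adjusted p = 0.271). The upper ends of the sizes these intervals allow, 1.23-fold for Icosl and 1.25-fold for Cd276, are below the smallest of the 5 falls as measured. They are also below the bound of 1.39-fold for Havcr2. An exact two-sided permutation test of each gene over its 6 arrays cannot go below 0.1, which it reached for the 7 genes whose groups did not overlap. It gave 0.6 for Icosl and 0.2 for Cd276.

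**Figure D2:**
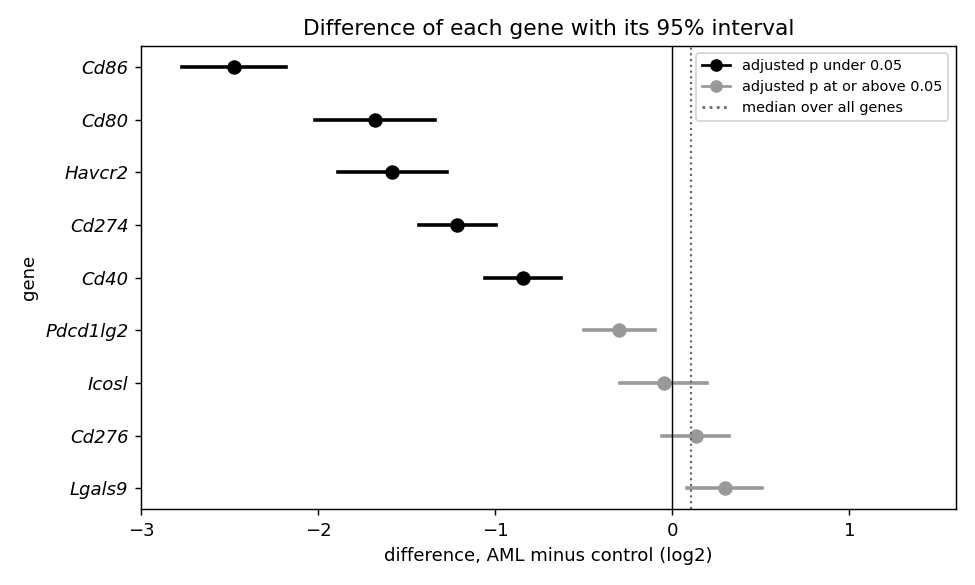
Difference of each gene in log2 units (horizontal axis, AML minus control) with its 95% interval from limma, for the 9 genes in order (vertical axis), and the median over all genes, 0.11, as a dotted line. The 5 genes past the threshold (black) run from -2.48 for Cd86 to -0.84 for Cd40, and the grey intervals of Icosl and Cd276 cross 0.

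Promoter sequences are shown for 3 genes that fell and, for contrast, for Pdcd1lg2, the neighbour of Cd274 that did not pass. RefSeq promoter windows (GRCm38.p6) matched 7 of the 9 genes. Cd86 and Cd40, which both fell, had no window, so the motif counts leave them out. The 250 bases before the start are printed 5′ to 3′ along the gene's strand, with matches to the searched motifs in capitals.
Cd80 promoter, chr16:38458683-38458932, + strand: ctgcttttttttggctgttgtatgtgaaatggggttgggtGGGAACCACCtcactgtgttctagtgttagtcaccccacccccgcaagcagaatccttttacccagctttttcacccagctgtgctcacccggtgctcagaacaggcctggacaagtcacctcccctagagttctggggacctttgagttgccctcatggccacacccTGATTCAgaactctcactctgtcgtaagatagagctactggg
Cd274 promoter, chr19:29367188-29367437, + strand: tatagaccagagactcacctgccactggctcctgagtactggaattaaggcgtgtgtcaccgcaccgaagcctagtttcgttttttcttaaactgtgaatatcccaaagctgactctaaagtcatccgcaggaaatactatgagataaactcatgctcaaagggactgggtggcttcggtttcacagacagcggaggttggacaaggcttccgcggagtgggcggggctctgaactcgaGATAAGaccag
Havcr2 promoter, chr11:46454681-46454930, + strand: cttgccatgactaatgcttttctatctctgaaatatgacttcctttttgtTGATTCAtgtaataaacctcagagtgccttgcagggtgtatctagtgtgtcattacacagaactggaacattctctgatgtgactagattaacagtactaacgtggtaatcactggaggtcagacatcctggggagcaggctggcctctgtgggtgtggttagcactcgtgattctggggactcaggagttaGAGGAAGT
Pdcd1lg2 promoter, chr19:29410669-29410918, + strand: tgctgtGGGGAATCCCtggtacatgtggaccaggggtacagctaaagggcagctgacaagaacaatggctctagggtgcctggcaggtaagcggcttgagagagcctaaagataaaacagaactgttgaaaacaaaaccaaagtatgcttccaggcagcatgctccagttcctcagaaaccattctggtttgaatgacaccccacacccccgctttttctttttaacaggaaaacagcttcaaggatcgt
The motifs, searched on both strands, were TTCNNNGAA (STAT factors), GAGGAAGT (PU.1), the GATA and AP-1 motifs spelled out beside their counts, and those of NF-kappaB and of interferon regulatory factors. In the printed windows no matches overlap. The Cd80 window held the AP-1 and NF-kappaB letters, that of Havcr2 the PU.1 and AP-1 letters, that of Cd274 the GATA letters and that of Pdcd1lg2 the NF-kappaB letters. The NF-kappaB letters were found in 4 of the 7 windows (Cd80, Pdcd1lg2, Icosl and Lgals9) and in 17.6% of all 32851 promoters of the table, and 3 of these 4 genes did not pass the threshold. The AP-1 letters, TGANTCA, were found in Cd80 and Havcr2 and in 6.75% of all promoters. The PU.1 letters were found in Havcr2 (2.44% of all), the GATA letters, GATAAG, in Cd274 (6.55%) and the interferon regulatory factor letters in Lgals9 (2.98%). The STAT letters were in none of the 7 windows and in 7.02% of all. Base composition also differed, with 44.8%, 50.4% and 52.8% G or C in the fallen genes Havcr2, Cd274 and Cd80 and 48.4%, 58.4%, 68.8% and 77.6% in Pdcd1lg2, Lgals9, Icosl and Cd276, so that the ranges overlapped, against a median of 52.4% over all promoters. These matches are of letters in 1 window a gene, and any link between them and the falls was not tested.

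The 2 measured genes on each side of each of the 9 came to 32 genes outside the 9, of which 4 were lower and 3 higher, where 6.25% of all genes were lower and 4.49% higher. Of the genes directly beside the 5 that fell, Plgrkt beside Cd274 passed and no other did. Cd86 lies near the stefin genes of protease inhibitors. Stfa3, the second measured gene before it, rose from 5.25 ± 0.22, below the dim level, to 8.64 ± 0.28 (limma adjusted p = 0.000281). Against the dim level the rise of Stfa3 was at least 8.74-fold. Slc15a2, a peptide transporter gene and the second measured gene after Cd86, fell from 6.48 ± 0.03 to 5.39 ± 0.18 (limma adjusted p = 0.00167). Its AML mean was below the dim level, so that its control mean was at least 1.95-fold higher. On either side of Cd86, Casr, the calcium-sensing receptor gene, and Ildr1, an immunoglobulin-domain receptor gene, did not pass (+0.26 and -0.04). Cd274 and Pdcd1lg2 are direct neighbours. Plgrkt, a plasminogen receptor gene on the other side of Cd274, fell by 0.59 (limma adjusted p = 0.00958, and 0.0547 without control array 2), and Ric1, a Golgi trafficking gene beyond Pdcd1lg2, fell by 0.50 (limma adjusted p = 0.0264). The call of Ric1 was lost on leaving out AML array 2 or control array 2 or 3 (adjusted p 0.0659 to 0.106). Med7, a mediator subunit gene near Havcr2, fell by 0.58 (limma adjusted p = 0.00473), and Dnmt3l, a cofactor of DNA methylation next to Icosl, rose by at least 1.19-fold, its control mean of 5.20 being below the dim level. Gm15953, near Cd80, passed upward with all 6 values below the dim level, so that no fold is given, and its call was lost on leaving out control array 2 or 3 (adjusted p 0.0634 and 0.0745).

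**Figure D3:**
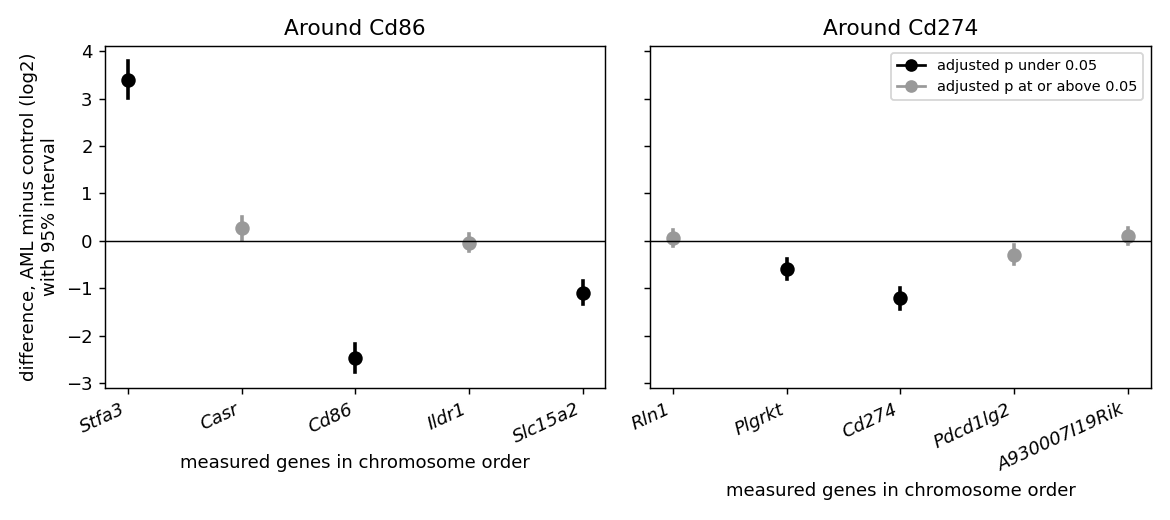
Difference in log2 units with its 95% interval (vertical axis) for the measured genes around Cd86 (left) and Cd274 (right), in chromosome order and not to scale of distance (horizontal axis). Stfa3 stands at a measured +3.39 on the same stretch as Cd86 at -2.48, and Plgrkt and Cd274 are both below 0.

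The genes whose 6 values followed each fallen gene most closely were sought among 15025 others of at least median level, by the root mean square distance of values centred on each gene's mean. They describe these 6 arrays only, and the measure takes in the difference between the groups, so that genes with a like fall rank high. For Cd86 they were Ifi211 (distance 0.12), an interferon-inducible gene, Slamf7 (0.13), a receptor of the SLAM family, and Bcl2a1a (0.13), of the BCL2 family. For Cd80 they were Lilr4b (0.11), an inhibitory leukocyte receptor gene, Cxcl10 (0.12), a chemokine gene, and Gch1 (0.13), of biopterin synthesis. Cd274 had Cyth1 (0.06), a guanine nucleotide exchange factor gene, and the antigen presentation genes H2-M3 (0.06) and H2-DMb2 (0.06). Cd40 had Avpi1 (0.05), Aif1 (0.06), a macrophage gene, and Nfkbib (0.06), an inhibitor of NF-kappaB. Havcr2 had Ly6a2 (0.06), Arid5b (0.11) and S100a9 (0.11), a neutrophil gene.

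Genes of CD40 signalling and of interferon gamma signalling fell in 8 of 12 and 5 of 7 cases. Both pathways are described to act on the expression of some of the 9, but a link to their falls was not tested. Over all genes 6.25% fell, and no test compared the lists. The lists, like the 9, were chosen with earlier results of these data known. Of 12 measured genes of CD40 signalling, 8 fell and 0 rose, with a median difference of -0.66 (-0.77 relative to all genes). Tnfaip3, the NF-kappaB brake A20, fell 4.06-fold from 8.36 ± 0.18 to 6.34 ± 0.20 (limma adjusted p = 0.000538), Birc3, a ubiquitin ligase of the receptor complex, fell by 1.41, and Traf1, an adaptor of that complex, fell by 1.23. Rela, the NF-kappaB subunit and brightest of the list, fell by 0.56 (limma adjusted p = 0.0194), a call lost on leaving out AML array 1 or 2 or control array 2 or 3 (adjusted p 0.0552 to 0.0899). Leaving out AML array 2 or control array 3 took the count to 5. Traf2, Traf5, Traf6 and Map3k14 did not pass.

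Interferon gamma is the main inducer of PD-L1. Of 7 measured genes of its signalling, 5 fell and 0 rose, with a median of -0.89 (-0.996 relative to all genes). The receptor chain gene Ifngr1 fell by 1.01 (limma adjusted p = 0.042), the other chain Ifngr2 by 0.97 (adjusted p = 0.00981), the kinase gene Jak2 by 0.91 (adjusted p = 0.02) and Jak1, the brightest, by 0.66 (adjusted p = 0.00545). Jak2 lost its call on leaving out AML array 1 or 2 or control array 2 or 3 (adjusted p 0.0565 to 0.0866), and Ifngr1 on leaving out AML array 2 or any of the control arrays (adjusted p 0.0552 to 0.143). The count was 3 when AML array 2, control array 2 or control array 3 was left out. Irf1, a factor that acts on the Cd274 promoter, stood at 5.88 ± 0.39 against 6.25 ± 0.03 (adjusted p = 0.196).

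Other ligands of costimulation and inhibition mostly did not pass. Of 19 measured, 4 fell and 0 rose, and 11 had both group means at or below the dim level (median +0.05, or -0.05 relative to all genes). Pvr, the poliovirus receptor that binds TIGIT and CD226, fell 1.93-fold from 6.97 ± 0.12 to 6.02 ± 0.08 (limma adjusted p = 0.0017), and Icam1, the adhesion ligand of LFA-1, fell 1.83-fold from 8.02 ± 0.10 to 7.15 ± 0.02 (limma adjusted p = 0.00141). Vsig4, a B7-related macrophage receptor, fell from 5.44 ± 0.26 to 4.31 ± 0.30, both below the dim level. Cd47, the brightest of the list and the signal that restrains phagocytosis, stood at 10.21 ± 0.19 against 10.13 ± 0.06 (limma adjusted p = 0.589). Vsir, the gene of VISTA, was the remaining fall (-0.44, limma adjusted p = 0.0483), a call lost on leaving out any of the 6 arrays (adjusted p 0.0534 to 0.163). Of 6 genes of PD-L1 protein turnover, Hip1r and Gsk3b fell by 0.51 and 0.30. The first lost its call on leaving out AML array 1 or 2 or control array 2 or 3 (adjusted p 0.0694 to 0.115) and the second on leaving out any array (adjusted p 0.0508 to 0.143), so that the count was 0 or 1.

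On the T cell side, 0 of 13 measured genes passed in either direction with limma, with 3 lower and 0 higher at an unadjusted p under 0.05. The list held receptors of such ligands and Cd40lg, the gene of CD40 ligand. Both group means of 8 of the 13, Cd28, Ctla4, Icos, Pdcd1, Cd40lg, Lag3, Tigit and Cd96, were at or below the dim level. The brightest was Cd226, a receptor that platelets and megakaryocytes also carry, at 8.51 ± 0.37 against 8.38 ± 0.47 (limma adjusted p = 0.744). Of 5 genes of the TIM family and its partners, Timd4, a receptor for phosphatidylserine, fell by 0.63 (limma adjusted p = 0.0393), a call lost on leaving out AML array 1 or any of the control arrays (adjusted p 0.0702 to 0.145). Ceacam1, a TIM-3 partner and the brightest of that list, stood at 8.75 ± 0.17 against 8.82 ± 0.02 (limma adjusted p = 0.588). The galectin list held 8 genes beside Lgals9, among them Lgals3bp, which codes for a galectin-binding protein and not a galectin. Of these, Lgals3 fell by 0.66 (limma adjusted p = 0.00964) and Lgals8 by 0.63 (adjusted p = 0.0206, and 0.0577 to 0.0929 on leaving out AML array 1 or control array 2 or 3). Lgals1, the brightest, stood at 11.19 ± 0.33 against 10.53 ± 0.14 (limma adjusted p = 0.053), and passed upward in 6 refits, among them without AML array 3 (adjusted p = 0.00826). In the 7 lists 0 genes passed upward, while at an unadjusted p under 0.05 there were 3 such among the other ligands and 3 among the galectins.

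**Figure D4:**
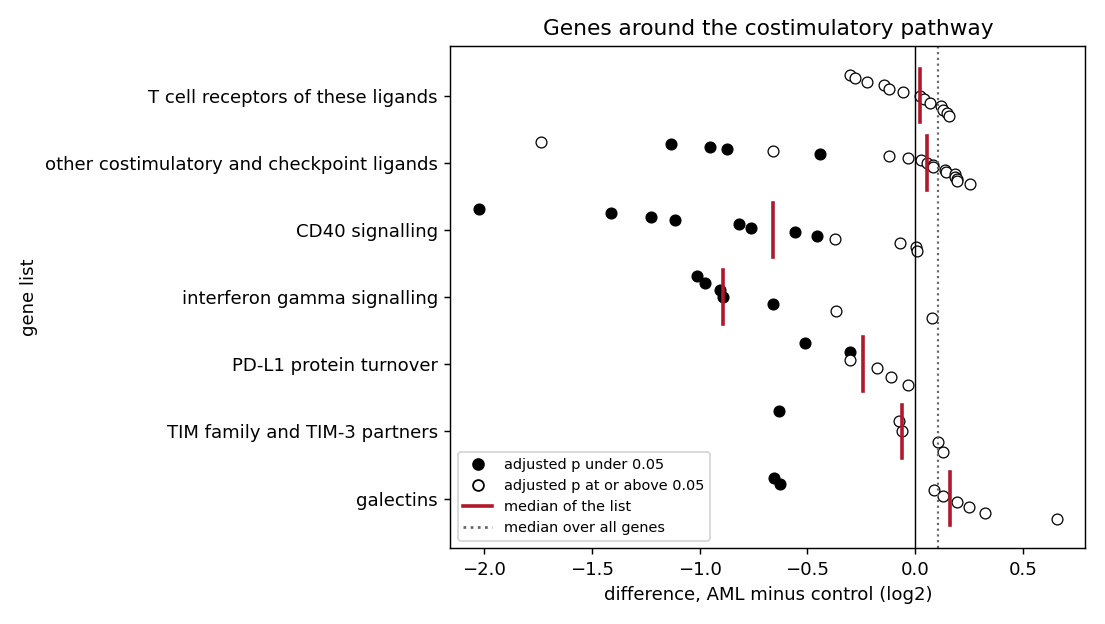
Difference of each measured gene in log2 units (horizontal axis, AML minus control) in the 7 lists around the pathway (vertical axis), filled where the adjusted p was under 0.05, with the median of each list in red and that over all genes dotted. The filled points of CD40 signalling (8 of 12) and interferon gamma signalling (5 of 7) all lie below 0. No gene is filled in the list of receptors that bind such ligands on T cells. That list also holds Cd40lg, the gene of a ligand, and holds no antigen receptor gene.

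Many markers of other marrow cells were lower too, and their part in the falls was not tested. Over all genes 6.25% were lower and 4.49% higher. In bulk RNA, fewer cells of a type and less RNA per cell cannot be told apart. MHC class II genes, which antigen-presenting cells use beside the B7 molecules, were lower in 5 of 6, and their mean log2 level was 7.15 to 7.31 on the AML arrays against 8.77 to 8.83 on the control arrays. H2-Ab1 and H2-Eb1, the brightest, fell by 2.44 and 2.71 (limma adjusted p = 7.16e-05 and 0.00015), while Ciita was below the dim level in both groups. Monocyte markers were lower in 6 of 7 (means 7.17 to 7.34 against 8.39 to 8.57) and macrophage markers in 9 of 11 (7.27 to 7.82 against 8.46 to 8.64). The brightest of each list, Ly6c2 and Cd68, did not pass, while the second brightest, Ms4a6c and C1qb, were lower. Cd68 passed downward without AML array 1 (limma adjusted p = 0.0141) and in 4 other refits (adjusted p 0.028 to 0.0366). Ly6c2 passed without AML array 3 (adjusted p = 0.0483) and with array weights (adjusted p = 0.0357). At an unadjusted p under 0.05, 11 of 11 macrophage and 6 of 7 monocyte markers were lower and 0 higher. The call of C1qb was lost on leaving out AML array 2 or control array 2 or 3 (limma adjusted p 0.0521 to 0.0861). The macrophage count was 6 on leaving out AML array 2 and 3 on leaving out control array 2 or 3. Dendritic cell markers were lower in 5 of 15 (5.41 to 5.60 against 6.01 to 6.11), 3 without control array 2, with Flt3, Zbtb46, Xcr1, Ccr9, Fscn1 and Ccl22 below the dim level in both groups. Clec9a and Ccr7, the 2 brightest of that list, did not pass. B cell markers were lower in 3 of 6 (5.29 to 5.44 against 5.75 to 5.84), and in 1 on leaving out AML array 2 or 3 or control array 1 or 2. Neutrophil markers were lower in 9 of 9 (8.62 to 9.01 against 10.37 to 10.69).

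Among the rest, 4 of 5 basophil and mast cell, 3 of 5 eosinophil, 4 of 5 endothelial, 1 of 5 plasma cell and 2 of 5 natural killer cell markers were lower, and 1 of the last, Ncr1, was higher. These counts too stand beside 6.25% lower and 4.49% higher over all genes. All 5 natural killer cell markers were below the dim level in both groups, and the call of Ncr1 was lost on leaving out any array but control array 1 (adjusted p 0.053 to 0.148). Without single arrays the endothelial count ran from 1 (without AML array 2) to 4, the plasma cell count was 0 on leaving out AML array 2 or control array 2 or 3, and the eosinophil count ran from 2 to 3. T cell markers were lower in 0 of 8 and higher in 0 (limma, with 3 lower and 1 higher at an unadjusted p under 0.05), and Cd3e, Cd3d, Cd3g, Cd247, Cd2 and Cd8a were below the dim level in both groups. Of 11 megakaryocyte markers 0 passed (limma, also 0 at an unadjusted p under 0.05), and all 11 were above the dim level in both groups, as the label of the sorts asks. Their mean was 9.56 to 10.25 in AML and 9.53 to 9.98 in control.

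**Figure D5:**
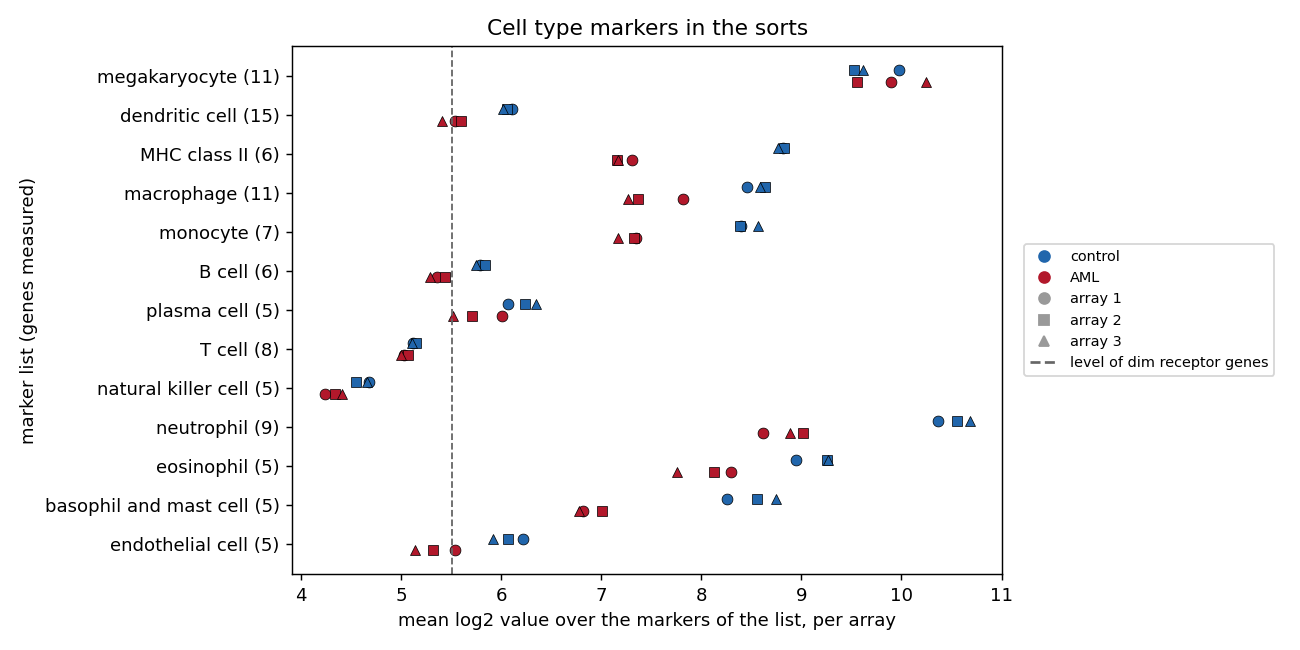
Mean log2 value over the markers of each cell type list (horizontal axis) on each control array (blue) and AML array (red), with the number of genes measured beside each list (vertical axis) and the dim level of 5.51 dashed. The megakaryocyte points of both groups overlap, from 9.53 to 10.25, while those of MHC class II, monocyte, macrophage and neutrophil lists are separate, with AML lower.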

How the data were processed

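Total RNA (250 ng) of each of 6 sorts was labelled with biotin and hybridised to an Affymetrix array, per the labels' protocols. The authors deposited log2 values made with RMA (background correction, quantile normalization and probe summary), per the submitters' processing notes, and RMA cannot show a change shared by most genes. Genome build and RMA version are not given in the sources used here. Of 72688 rows, 30604 had 1 platform symbol, updated through a RefSeq table (GRCm38.p6), and the row of highest mean was kept for each of 30063 genes. The members and lists were chosen with earlier results of these data known. The genes named beyond the 9 were, by rule, up to 3 of each pathway list past the threshold per direction with the largest difference and its brightest gene, the 3 most like each fallen gene and neighbours past the threshold. The rule also took the 2 brightest of each marker list. Of these the text names those of the MHC class II, monocyte, macrophage and dendritic cell lists and Ncr1, and leaves the others out. Other genes were picked with their values in view. Deposited values were tested with limma (lmFit, eBayes without trend, 2 groups, no filter), and the fit was tested on simulated data. A further comparison, of protein sequences, was not made. Refits changed the block, variance trend, array weights, scaling, dim filter, row choice, fold minimum and arrays left out. Alternatives not named in the closing section changed no call of the 9. Software was limma 3.58.1 under R 4.3.3 and, for tables and plots, numpy 2.4.6, matplotlib 3.10.9 and pandas 2.3.3 under Python 3.11.15.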

Additional observations from a re-analysis of the deposited data

How the results depend on the processing

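The 5 falls kept their direction and passed in every refit that held the gene, with differences of -1.83 to -1.54 for Cd80, -2.60 to -2.33 for Cd86, -0.96 to -0.76 for Cd40, -1.33 to -1.14 for Cd274 and -1.70 to -1.47 for Havcr2. Havcr2 and Pdcd1lg2 were left out by both dim filters. Pdcd1lg2 passed downward with array weights (-0.35), median centring (-0.42), quantile normalization (-0.43) and cyclic loess (-0.43), and Lgals9 upward with array weights (+0.27) and quantile normalization (+0.38), which made 1 gene higher in each of these. Icosl, not past the threshold, changed sign without AML array 3 (+0.042), and its differences with single arrays left out ran from -0.11 to +0.042.

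With single arrays left out, the counts of lower genes ran from 3 to 5 for other ligands, 5 to 8 for CD40 signalling, 3 to 6 for interferon gamma signalling, 0 to 1 for PD-L1 turnover, 0 to 1 for the TIM family and 1 to 2 for galectins, and that of higher galectins from 0 to 1. In the list of T cell receptors of such ligands and Cd40lg, 3 genes fell under array weights, median centring, quantile normalization and cyclic loess each. Among genes at or above the median level, 1 of that list fell. PD-L1 turnover counted 1 under quantile normalization, 1 under cyclic loess and 0 with a 1.5-fold minimum. Higher galectins numbered 2 with array weights and 1 under quantile normalization, cyclic loess and each dim filter, and higher other ligands 2 with array weights. The cause of these changes was not tested.

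With the replicate number as a block, the lower counts were 2 for other ligands, 5 for CD40 signalling, 3 for interferon gamma signalling, 0 for PD-L1 turnover, 0 for the TIM family and 0 for galectins, while 5 of the 9 genes stayed lower (adjusted p 0.00458 to 0.0246). The labels state no pairing of same-numbered arrays. The deviations of these from their group means correlated at -0.36, 0.14 and -0.29, and those of differently numbered arrays at -0.28 to 0.43. With 3 arrays a group such correlations cannot decide whether same-numbered arrays share a batch. Without detection calls, levels near 5.51 cannot be told from background.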

Other observations

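Tnfsf9, the gene of the costimulatory ligand 4-1BBL, was chosen after its values were seen, as the listed gene with the widest spread among the AML arrays. Its log2 values were 5.02 and 5.24 on AML arrays 1 and 2, 7.76 on AML array 3, and 7.95, 7.87 and 7.42 on the control arrays. AML array 3 thus stood among the controls. The difference was -1.74 (limma adjusted p = 0.132), and without AML array 3 it was -2.61 (adjusted p = 0.000833). The AML values left in that fit were both below the dim level of 5.51, so that -2.61 is not an exact size. With all 6 arrays it passed with array weights (-2.44, adjusted p = 0.00602) and under no other setting of those run. AML array 3 was the lowest AML array for Cd80 and Cd86, so that it stood low for these and high for Tnfsf9.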
